A study of Homo sapiens with 6 samples.

Results

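N-glycan assembly and processing enzymes were followed in human TPC-1 cells given a lentiviral short hairpin RNA (shRNA) against SHCBP1 or a lentiviral control shRNA. The 43 genes were chosen by function, with earlier results of these data known, and 41 of them are represented among the 18132 genes tested here. A gene was taken as the mean of the probe sets (groups of short probes on an array) that the platform annotation assigns to that gene alone, and the 41 genes have 110 such probe sets. PMM2 and ALG11 were not analysed here, ALG11 because its 2 probe sets are assigned to it together with UTP14C.

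RNA from 3 samples with the control shRNA and 3 with the SHCBP1 shRNA was hybridised to Affymetrix arrays, 1 sample per array; the latter are called the knockdown arrays below. TPC-1 is an established papillary thyroid carcinoma line, and both groups were grown in RPMI1640 with serum. The text on RNA extraction, however, gives DLD1, a colorectal carcinoma line. The deposited log2 values of every probe set have a median of 0 across the 6 arrays, so they hold no expression level against which the line's markers could be checked. Against 41.0% of all genes, 1 of 6 thyroid markers tested differed between the groups (FOXE1, higher by 0.24 on the log2 scale). Of 7 intestinal markers 3 did (42.9%), a share close to that of all genes, among them KRT20, which fell by 1.09, and LGR5, which rose by 0.58. The titles distinguish no further shRNA and no rescue, so the loss of SHCBP1 cannot be told apart from off-target effects of its shRNA. Nothing states that the samples came from separate cultures, so the p-values measure only the scatter of these samples, and that scatter may be technical. In bulk RNA a change in some cells and a smaller change in all cells cannot be told apart.

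N-glycans are built on the lipid dolichol in the membrane of the endoplasmic reticulum, moved as a block to asparagine residues of entering proteins by the oligosaccharyltransferase, and then trimmed and rebuilt in the endoplasmic reticulum and Golgi. The early steps use GDP-mannose, UDP-N-acetylglucosamine and dolichol-linked sugars, and the trimmed forms are read by chaperones that sort folded from misfolded glycoproteins. Growth factor receptors, integrins and thyroid proteins such as the thyrotropin receptor carry N-glycans.

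The target was lower in the knockdown arrays: SHCBP1 stood at centred log2 values of 0.72, 0.76 and 0.71 in the controls and -0.95, -0.76 and -0.72 in the knockdown arrays, a log2 fold change of -1.54 ± 0.06 (SE). Control probe sets moved as well. Bacterial poly-A transcripts are spiked into the RNA ahead of labelling, and their probe sets read 0.43 ± 0.04 (SE, n = 3 arrays per group) higher on the log2 scale after knockdown. The 28S ribosomal RNA 5′ control probe set read 2.80 ± 0.03 (SE) higher, and the difference between the 3′ and 5′ probe sets of ACTB, a sign of RNA integrity, moved by -0.077 ± 0.018 (SE) and that of GAPDH by -0.0059 ± 0.016 (SE). The part of these controls in the results was not tested. Scaling to those spike-ins lowers every gene alike, so every rise and fall below is relative to the rest of the genes measured. The median of all genes was 0.022 as deposited and -0.41 after that scaling.

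Of the 41 enzymes, 29 passed limma's moderated test at a Benjamini-Hochberg adjusted p under 0.05, 18 of them higher and 11 lower in the knockdown arrays. Over all 18132 genes 41.0% passed, 22.0% higher and 19.0% lower, against 70.7%, 43.9% and 26.8% of the enzymes. The changes were small. The median size over the 41 enzymes was 0.16 on the log2 scale, against 0.11 over all genes, and 3 of the enzymes (7.3%) changed by at least 0.5, against 8.2% of all genes. Of the 29 that passed, 17 changed by less than 0.25. Over the 41 the median log2 fold change was 0.035, against 0.022 over all genes, and it ran from 0.023 (without SHCBP1 shRNA replicate 1) to 0.080 (without SHCBP1 shRNA replicate 3) with single arrays left out. The control and knockdown values did not overlap in 33 of the 41 enzymes (18 higher, 15 lower), against 50.0% of all genes.

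Several of the smaller changes lay close to the threshold. Of the 29, 19 passed whichever array was left out (11 higher, 8 lower). The other 10, namely MPI, GMPPB, DPAGT1, ALG1, ALG12, STT3A, STT3B, RPN1, RPN2 and MGAT1, kept their direction but no longer passed with some arrays left out. GMPPB, STT3A and STT3B were lost whichever of the 6 arrays was removed, and the other 7 without 3 to 5 of them, at adjusted p-values (limma) from 0.0518 to 0.138. ALG1, ALG12, STT3A and STT3B also no longer passed when arrays were centred on their median or quantile normalised again. Without SHCBP1 shRNA replicate 3 the count of higher enzymes dropped to 11. After scaling to the spike-ins 1 enzyme was higher and 34 were lower.

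**Figure D1:**
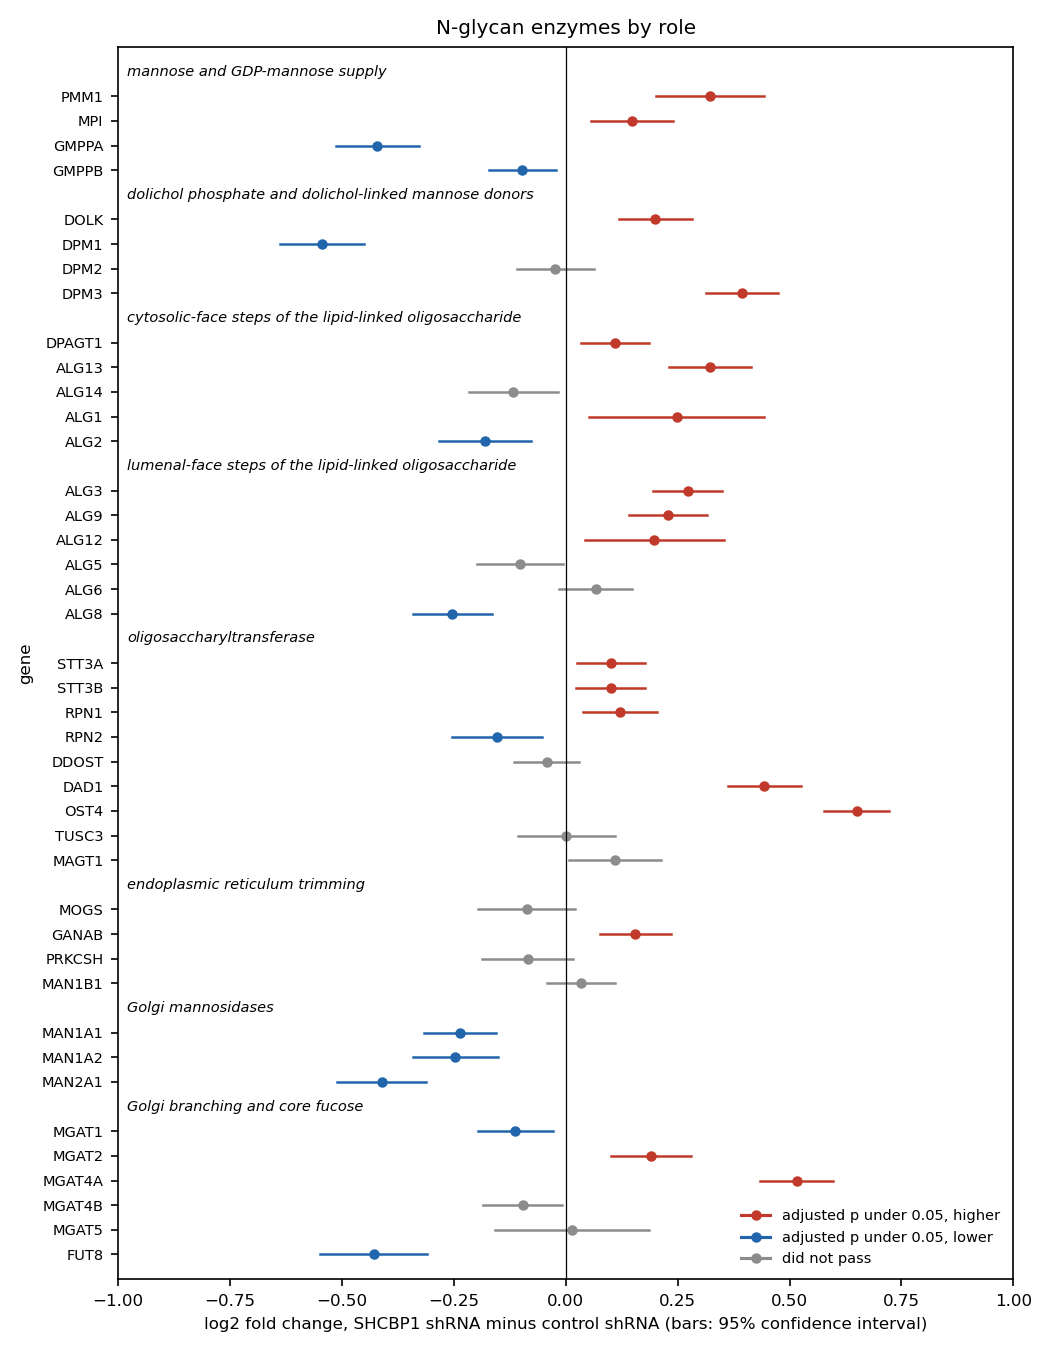
Log2 fold change (SHCBP1 shRNA minus control shRNA, horizontal axis) of the 41 enzymes tested, grouped by role, with limma's 95% confidence interval as a bar and 3 arrays per group. Red and blue genes passed at an adjusted p under 0.05 (18 higher, 11 lower) and grey genes did not. OST4 at 0.65 and DPM1 at -0.54 mark the ends of the range, and MAN1A1, MAN1A2 and MAN2A1 lie below 0.

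Promoter sequences are shown for a few genes, since several genes of the pathway are known targets of the unfolded protein response and of ATF4, the factor of the amino acid response. RefSeq promoter windows of 300 bases (250 before to 50 after the start, GRCh38.p14) were matched for 37 of the 43 enzymes and searched on both strands. The endoplasmic reticulum stress element (ERSE), CCAAT and CCACG with 9 bases between, occurred in 1 of the 37, ALG12. Over all promoters it occurred in 0.0916% of 27305 genes, and in 0.0769% of their 35093 windows. Among related genes it was found in the chaperone genes CALR and CANX. The shorter motifs ERSE-II (ATTGG and CCACG with 1 base between, 0.0696% of genes) and UPRE (TGACGTGG, 0.927% of genes) occurred in 0 of the 37. UPRE occurred in 2 of the 52 related genes with a window, DHDDS and NANS. The ATF4 element, taken as TGATGNAA, was found in 1 of the 37, FUT8, and in 4.46% of genes. Of those 52 related genes 1, MCFD2, held it. These matches are letters only, and whether a factor binds them was not tested. The 120-base stretches of ALG12 (chr22:49918504-49918623, minus strand), CALR (chr19:12938359-12938478, plus strand) and FUT8 (chr14:65410349-65410468, plus strand) have the match in capitals, which in CALR and FUT8 reads on the opposite strand. OST4 (chr2:27071655-27071774, minus strand) and DPM1 (chr20:50958533-50958652, minus strand), the largest rise and fall among the enzymes, hold none of these motifs in their windows and are shown up to the base before the start. Each runs 5′ to 3′ on the gene's strand.
ALG12: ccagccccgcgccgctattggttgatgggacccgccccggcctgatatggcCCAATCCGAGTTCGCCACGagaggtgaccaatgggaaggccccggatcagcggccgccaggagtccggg
CALR: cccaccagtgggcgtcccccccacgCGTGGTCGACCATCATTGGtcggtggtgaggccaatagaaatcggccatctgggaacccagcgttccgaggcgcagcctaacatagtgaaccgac
FUT8: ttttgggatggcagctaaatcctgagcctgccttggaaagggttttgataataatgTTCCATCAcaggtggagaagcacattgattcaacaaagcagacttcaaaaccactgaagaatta
OST4: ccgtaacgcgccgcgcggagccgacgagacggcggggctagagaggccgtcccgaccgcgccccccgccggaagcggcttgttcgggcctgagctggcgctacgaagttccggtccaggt
DPM1: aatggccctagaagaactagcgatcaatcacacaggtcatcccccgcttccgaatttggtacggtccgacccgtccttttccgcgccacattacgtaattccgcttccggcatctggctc

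The genes with an ERSE did not move alike. CALR fell by 1.27 on the log2 scale, CANX stood at 0.054 (limma, Benjamini-Hochberg adjusted p = 0.23), and ALG12, a mannosyltransferase of the lumenal steps, rose by 0.20 with an adjusted p of 0.0478. Guanine and cytosine made up 74.2% of the OST4 stretch and 55.0% of that of DPM1, against a median of 60.0% over the same 120 bases, the last before the start, of all windows. The FUT8 stretch belongs to 1 of several start sites listed for the gene, and which start the cells used was not measured.

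Enzymes that supply mannose moved in both directions. MPI, which makes mannose-6-phosphate from fructose-6-phosphate, and PMM1, a phosphomannomutase, rose, by log2 differences of 0.15 and 0.32, whereas both subunits of GDP-mannose pyrophosphorylase fell. The 5 probe sets of MPI ran from -0.24 to 0.60, and its call was lost with some arrays left out. PMM1 had centred log2 values of -0.14, -0.23 and -0.093 in the controls and 0.19, 0.093 and 0.22 in the knockdown arrays, which do not overlap. Its log2 fold change was 0.32 ± 0.05 (SE, n = 3 arrays per group; limma adjusted p = 0.00153). GMPPA, the regulatory subunit, gave 0.20, 0.16 and 0.24 in the controls and -0.20, -0.27 and -0.19 after knockdown, again without overlap. Its fold change was -0.42 ± 0.04 (SE; limma adjusted p = 9.89e-05), and its 2 probe sets agreed, at -0.43 and -0.41. The catalytic subunit GMPPB changed less, by -0.097 ± 0.032 (SE; limma adjusted p = 0.0456), and its call was lost whichever of the 6 arrays was left out. Its 1 probe set did not pass when probe sets were tested on their own (limma adjusted p = 0.098). Within arrays, GMPPB minus GMPPA was higher after knockdown by 0.32 ± 0.04 (SE). The SE of each within-array difference, here and below, comes from 3 arrays per group and is not moderated as limma's SEs are.

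Dolichol-phosphate-mannose synthase, which hands mannose to the lumenal steps, had subunits that moved apart. DPM1, its catalytic subunit, fell from centred log2 values of 0.29, 0.31 and 0.23 in the controls to -0.23, -0.28 and -0.31 in the knockdown arrays. All 3 knockdown arrays were below all 3 controls, and the change of -0.54 ± 0.04 (SE; limma adjusted p = 2.82e-05) corresponds to a 1.46-fold lower value. DPM3, a small subunit that holds DPM1 at the membrane, went the other way, from -0.17, -0.22 and -0.21 to 0.18, 0.17 and 0.23, with no overlap. That is a rise of 0.39 ± 0.03 (SE; limma adjusted p = 6.75e-05), or 1.31-fold. DPM2, the remaining subunit, gave 0.028, -0.038 and 0.038 in the controls and 0.018, -0.042 and -0.018 after knockdown, so the groups overlapped, and it did not pass (limma adjusted p = 0.678). The within-array difference DPM3 minus DPM1 was higher in the knockdown arrays by 0.94 ± 0.05 (SE). Each of the 3 subunits rests on 1 probe set. DOLK, the kinase that makes dolichol phosphate, rose by 0.20 ± 0.03 (SE; limma adjusted p = 0.00228).

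On the cytosolic face, where the first sugars are added to dolichol, 3 of 5 enzymes rose and 1 fell. These are 60% and 20%, against 22.0% and 19.0% of all genes, and the calls of DPAGT1 and ALG1 were lost with some arrays left out. The largest change was in ALG13, the catalytic part of the enzyme that adds the second N-acetylglucosamine. It went from -0.22, -0.16 and -0.10 in the controls to 0.15, 0.18 and 0.16 in the knockdown arrays, and they did not overlap. ALG13 changed by 0.32 ± 0.04 (SE; limma adjusted p = 0.000384), but its 5 probe sets ran from -0.24 to 0.76, with 3 passing upward and 1 downward, so its value depends on which transcript parts are read. ALG14, the membrane anchor of ALG13, had control values of 0.11, 0.0079 and 0.050 and knockdown values of -0.10, -0.0079 and -0.073, separated by a narrow gap, and did not pass (limma adjusted p = 0.0626). DPAGT1, which starts the chain and is the target of tunicamycin, rose by 0.11 ± 0.03 (SE; limma adjusted p = 0.0297). ALG1, which adds the first mannose, rose by 0.25 ± 0.08 (SE; limma adjusted p = 0.0481), and it was the one enzyme of the 29 whose groups overlapped. ALG2, which adds the next mannoses, fell by 0.18 ± 0.04 (SE; limma adjusted p = 0.0128); of its 3 probe sets 1 fell by 0.57 and the others stood at 0.034 and -0.0085.

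Of the 6 enzymes of the lumenal steps 3 rose (50%, against 22.0% of all genes) and 1 fell (16.7%, against 19.0%). ALG3, ALG9 and ALG12, which add the remaining mannoses, rose by 0.27 ± 0.03, 0.23 ± 0.04 and 0.20 ± 0.07 (SE). The call of ALG12 (limma adjusted p = 0.0478) was lost with some arrays left out. Both probe sets of ALG3 rose, by 0.27 and 0.28, while those of ALG9 ran from 0.0045 to 0.48. ALG8, which adds the second glucose, fell by 0.25 ± 0.04 (SE; limma adjusted p = 0.0011) and has 1 probe set. ALG5, the maker of dolichol-phosphate-glucose, had control values of 0.011, 0.068 and 0.12 and knockdown values of -0.078, -0.021 and -0.011, and did not pass (limma adjusted p = 0.0846). ALG6, which adds the first glucose, stood at 0.067 (limma adjusted p = 0.175). Its 3 probe sets ran from -0.10 to 0.33, and 1 of them passed upward.

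**Figure D2:**
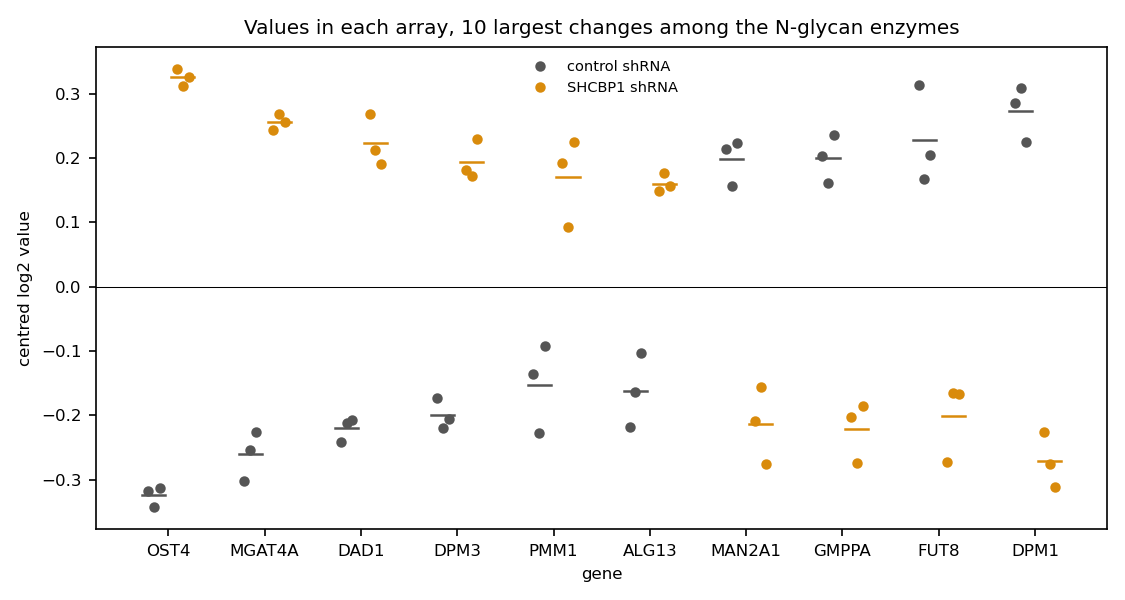
Centred log2 values (vertical axis) in each of the 6 arrays for the 10 enzymes with the largest changes past the threshold, with control shRNA arrays in grey and knockdown arrays in orange and the mean of 3 arrays as a short line. In all 10 the groups do not overlap, with OST4 near -0.32 in the controls and near 0.33 in the knockdown arrays.

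The oligosaccharyltransferase, the complex that moves the finished glycan to protein, held the largest rise of the set, in its smallest subunit. OST4, a very short membrane protein that helps to hold the complex together, had centred log2 values of -0.32, -0.34 and -0.31 in the controls and 0.34, 0.31 and 0.33 in the knockdown arrays. The groups lay far apart, and the rise of 0.65 ± 0.03 (SE; limma adjusted p = 4.12e-06; 95% confidence interval 0.58 to 0.72) is 1.57-fold. Both of its probe sets rose by 0.65. DAD1, a small subunit named as a defender against cell death, rose from -0.24, -0.21 and -0.21 to 0.27, 0.21 and 0.19, also without overlap. Its change was 0.44 ± 0.04 (SE; limma adjusted p = 4.23e-05), or 1.36-fold, and its 4 probe sets lay between 0.44 and 0.45. OST4, DAD1 and the branching enzyme MGAT4A were the 3 of the 18 risen enzymes whose rise was larger than the shift of the spike-ins. After scaling to the spike-ins OST4 still passed, and DAD1 and MGAT4A did not.

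The large subunits of the complex moved by much less. STT3A and STT3B, the catalytic subunits of its co-translational and post-translational forms, both rose by 0.10 ± 0.03 (SE, limma adjusted p = 0.0389 and 0.0444). RPN1 rose by 0.12 ± 0.04 (SE, limma adjusted p = 0.028). RPN2 fell by 0.15 ± 0.04 (SE, limma adjusted p = 0.0236), on probe sets at -0.26 and -0.046. The calls of STT3A, STT3B, RPN1 and RPN2 were all lost with some arrays left out. DDOST, a subunit common to both forms, gave 0.020, 0.0063 and 0.033 in the controls and -0.0087, -0.038 and -0.020 after knockdown, and did not pass (limma adjusted p = 0.344). MAGT1 and TUSC3, the alternative thioredoxin-like subunits of the STT3B form, stood at 0.11 and 0.0015 and did not pass (limma adjusted p = 0.086 and 0.986). Within arrays, OST4 minus DDOST was higher by 0.69 ± 0.004 (SE, not moderated) in the knockdown arrays. STT3A minus STT3B differed by 0.0014 ± 0.027 (SE, not moderated) between the groups. With 3 arrays per group such an SE is itself uncertain. Of the 3 subunits listed outside the 43 enzymes, OSTC fell by 0.14 ± 0.04 (SE; limma adjusted p = 0.0167), and KRTCAP2 and TMEM258 stood at 0.063 and -0.014.

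Of the 4 enzymes of trimming in the endoplasmic reticulum 1 passed, against 41.0% of all genes. GANAB, the catalytic subunit of glucosidase II, rose by 0.16 ± 0.03 (SE; limma adjusted p = 0.00761), and its partner PRKCSH stood at -0.085 (limma adjusted p = 0.17). MOGS, the glucosidase that acts first, had control values of 0.050, -0.027 and 0.073 and knockdown values of -0.11, -0.072 and 0.016, which overlap (limma adjusted p = 0.187). MAN1B1, which marks misfolded glycoproteins for disposal, stood at 0.035, with a 95% confidence interval from -0.041 to 0.11.

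The 3 Golgi mannosidases among the enzymes, MAN1A1, MAN1A2 and MAN2A1, fell (100%, against 19.0% of all genes). Of the 2 on the related list MAN2A2 rose and MAN1C1 stood at 0.0044 (limma adjusted p = 0.965). MAN2A1, which removes the last mannoses before complex branches form, went from 0.21, 0.16 and 0.22 in the controls to -0.21, -0.16 and -0.28 in the knockdown arrays, without overlap. Its change of -0.41 ± 0.04 (SE; limma adjusted p = 0.000156) rests on 1 probe set. MAN1A1 and MAN1A2, which act before it, fell by 0.24 ± 0.03 and 0.25 ± 0.04 (SE; limma adjusted p = 0.000926 and 0.00181), also with no overlap. Their difference within arrays was 0.010 ± 0.047 (SE). The probe sets of MAN1A1 ran from -0.51 to -0.14 and those of MAN1A2 from -0.41 to -0.13, all on the same side of 0. On their own, 2 of the 4 of MAN1A1 and 1 of the 3 of MAN1A2 passed. MAN2A2, a paralog of MAN2A1, rose by 0.23 ± 0.04 (SE; limma adjusted p = 0.00212).

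Branching enzymes and the core fucosyltransferase split. MGAT4A, which adds a branch on the arm that MGAT1 starts, had centred log2 values of -0.30, -0.25 and -0.23 in the controls and 0.24, 0.27 and 0.26 in the knockdown arrays, well apart. It rose by 0.52 ± 0.03 (SE; limma adjusted p = 1.94e-05), or 1.43-fold, and all 6 of its probe sets rose, by 0.27 to 0.81. MGAT4B, its paralog with the same activity, gave 0.067, 0.037 and 0.055 in the controls and -0.026, -0.10 and -0.0015 in the knockdown arrays, and did not pass (limma adjusted p = 0.0829). Of the 5 probe sets of MGAT4B, 4 fell by 0.14 to 0.21 and 1 stood at 0.23 and did not pass. With the median of the probe sets in place of their mean, MGAT4B passed as lower. MGAT4A minus MGAT4B rose within arrays by 0.61 ± 0.05 (SE).

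FUT8, the only enzyme that adds core fucose, fell from 0.31, 0.17 and 0.20 in the controls to -0.27, -0.17 and -0.17 in the knockdown arrays. The groups did not overlap, and the change was -0.43 ± 0.05 (SE; limma adjusted p = 0.000342), or 1.35-fold lower. Its 2 probe sets fell by 0.50 and 0.36. MGAT1, which opens the way to hybrid and complex glycans, fell by 0.11 ± 0.04 (SE; limma adjusted p = 0.0377), and MGAT2, which acts after MAN2A1, rose by 0.19 ± 0.04 (SE; limma adjusted p = 0.00507). MGAT5, whose branch binds galectins, stood at 0.014 with a 95% confidence interval from -0.16 to 0.19.

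**Figure D3:**
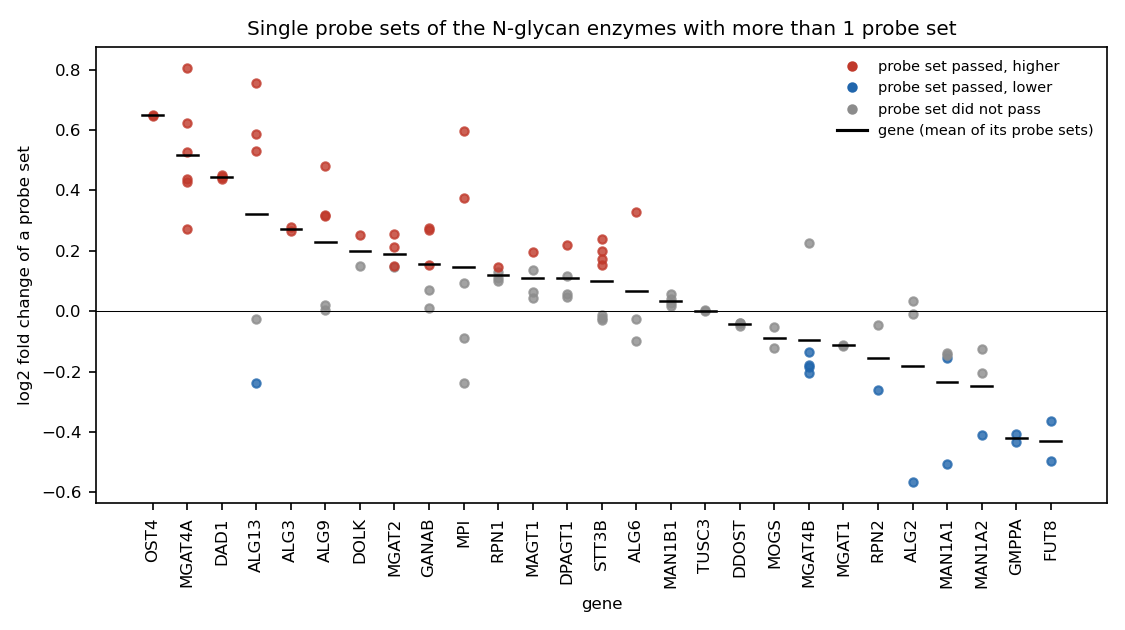
Log2 fold change of each probe set (vertical axis) for the 27 enzymes with more than 1 probe set, ordered by the mean of the gene (black line). Points are red or blue where the probe set passed on its own and grey where it did not. Those of OST4, DAD1, ALG3, GMPPA and FUT8 lie close together, while ALG13 spans -0.24 to 0.76.

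Probe sets of 1 gene often disagreed in size. Of the 110 probe sets 39 passed upward and 17 downward on their own, against 9118 and 8207 of all 44988. Of the 27 enzymes with more than 1 probe set, ALG13 alone had probe sets that passed upward and others that passed downward (3.7%), against 4.1% of the 11734 such genes in the whole table. MPI, with probe sets from -0.24 to 0.60, and ALG2 lost their calls when the median of the probe sets was used, as did DPAGT1, ALG1 and ALG12. ALG1 and ALG12 have 1 probe set each, so their own values did not move, and their adjusted p went from 0.0481 and 0.0478 to 0.052 and 0.0516.

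Partner genes of one enzyme or step were compared within arrays in 11 pairs, chosen after their values were seen. In 8 of the 11 the knockdown and control arrays did not overlap. How often other pairs of genes separate in this way was not measured, and 50.0% of all single genes did not overlap. An exact two-sided permutation test gave p = 0.1 for each of these 8 pairs, and 0.14 after Benjamini-Hochberg adjustment over the 11. Any pair without overlap gives p = 0.1 in this permutation test, the smallest that 3 arrays against 3 allow. The test therefore adds nothing to the lack of overlap, and no conclusion is drawn from it. The other 3 pairs were STT3A and STT3B, MAGT1 and TUSC3 (0.11 ± 0.08, SE), and MAN1A1 and MAN1A2. ALG13 minus ALG14 was higher by 0.44 ± 0.06 (SE), RPN1 minus RPN2 by 0.27 ± 0.05 (SE) and GANAB minus PRKCSH by 0.24 ± 0.04 (SE). These differences do not change with any scaling of whole arrays.

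Among genes that feed the pathway or act on its products, 52 of 58 were tested, and 6 were higher (11.5%, against 22.0% of all genes) and 21 lower (40.4%, against 19.0%). Their median size of change was 0.15, close to the 0.16 of the enzymes, but 10 of the 52 changed by at least 0.5, against 3 of the 41 enzymes; whether the sets differ was not tested. Of 12 tested genes of sugar nucleotide supply 7 fell (58.3%, against 19.0% of all genes) and 2 rose (16.7%, against 22.0%), with a median of -0.29. UAP1 and GNPNAT1, enzymes of UDP-N-acetylglucosamine synthesis, had log2 fold changes of -1.96 ± 0.11 and -1.82 ± 0.04 (SE). GMDS, which opens GDP-fucose synthesis from GDP-mannose, fell by 0.73 ± 0.04 (SE), and UGP2, which makes UDP-glucose, fell by 0.47 ± 0.03 (SE). The sugar donors of DPAGT1, ALG13 and the MGAT enzymes (UDP-N-acetylglucosamine) and of FUT8 (GDP-fucose) are the products of these routes.

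Of 16 genes of glycoprotein folding and quality control, 9 fell (56.2%, against 19.0% of all genes) and 1, LMAN2, rose, by 0.21 (6.25%, against 22.0%), with a median of -0.19. The lectin chaperone gene CALR fell by 1.27 ± 0.05 (SE), the cargo receptor gene LMAN1 by 1.12 ± 0.03 (SE), its partner MCFD2 by 0.63 ± 0.04 (SE) and the disulfide isomerase gene PDIA3 by 0.74 ± 0.04 (SE). The 6 probe sets of LMAN1 ran from -1.87 to -0.039. UGGT1 and UGGT2, which return glucose to unfolded glycoproteins and so undo the work of GANAB and PRKCSH, fell by 0.28 ± 0.04 and 0.27 ± 0.04 (SE). The 5 probe sets of UGGT2 ran from -0.66 to 0.33, with 3 passing downward and 1 upward.

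Dolichol itself is made by DHDDS and NUS1. NUS1 fell by 0.87 ± 0.05 (SE; limma adjusted p = 1.04e-05), with 3 probe sets from -1.26 to -0.60, and DHDDS stood at -0.019. DOLPP1, which recycles dolichol pyrophosphate after transfer, rose by 0.59 ± 0.05 (SE; limma adjusted p = 3.7e-05). ALG10B, which adds the last glucose, fell by 0.39 ± 0.12 (SE; limma adjusted p = 0.0395), on 1 probe set whose probes may also read its near-identical copy ALG10, and its call was lost without control shRNA replicate 1 and without control shRNA replicate 2. Of 16 other Golgi enzymes and transporters 2 rose and 2 fell, so 4 of 16 passed, against 41.0% of all genes. The CMP-sialic acid transporter gene SLC35A1 fell by 0.34 ± 0.05 (SE), the UDP-galactose transporter gene SLC35A2 rose by 0.31 ± 0.03 (SE), and SLC35A3, which carries UDP-N-acetylglucosamine, fell by 0.30 ± 0.04 (SE) on probe sets at 0.017 and -0.61. Of the 7 galactosyltransferases and sialyltransferases tested, which finish the branches, limma called 0, and 1 (B4GALT2, higher by 0.11) had an unadjusted p under 0.05 (0.0213; adjusted p = 0.0515).

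**Figure D4:**
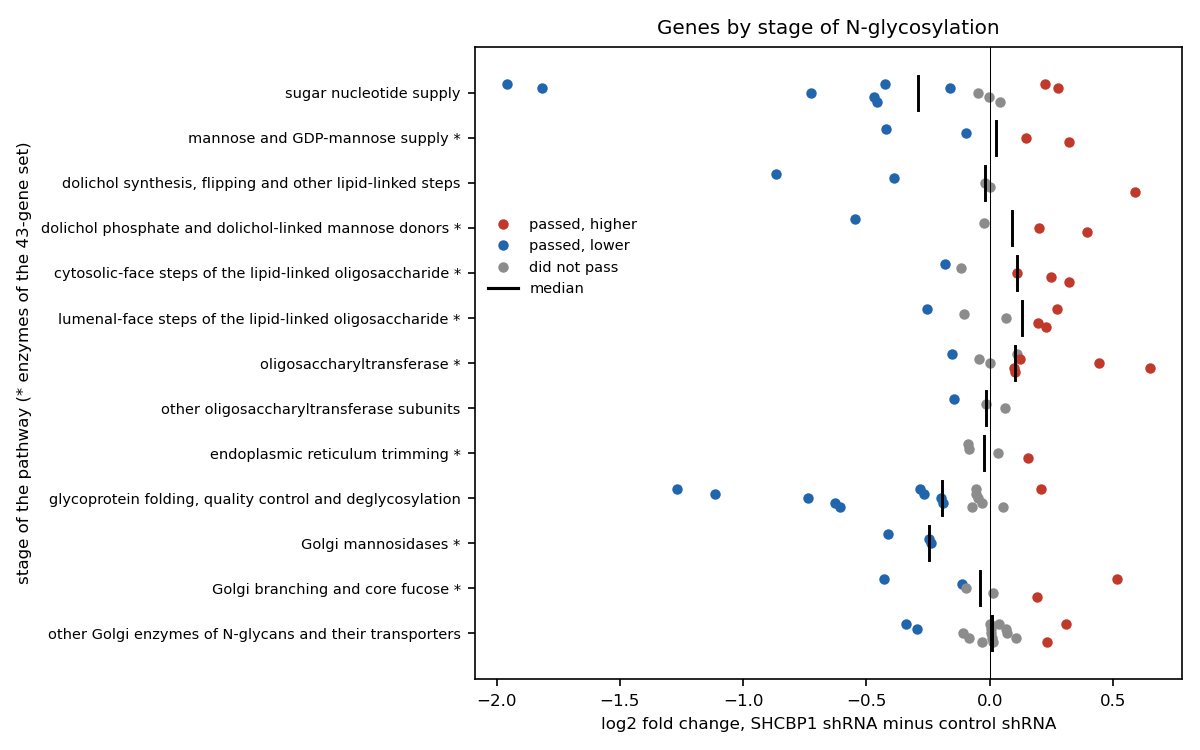
Log2 fold change (SHCBP1 shRNA minus control shRNA, horizontal axis) of the 41 enzymes (stages marked with a star) and of 52 related genes, by stage of the pathway, with the median of each stage as a black line. Genes that passed are red (higher) or blue (lower). The largest falls lie in sugar nucleotide supply (UAP1, -1.96) and in folding and quality control (CALR, -1.27), outside the starred stages.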

How the data were processed

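RNA of 3 control shRNA and 3 SHCBP1 shRNA samples was measured on 1 Affymetrix PrimeView array each. The authors deposited log2 values, summarised with RMA per the submitters' processing notes; the log base is not given in the sources used here, and every probe set has a median of 0 across the 6 arrays. They hold no detection call or background signal, so no filter on dim probe sets was possible. Probe sets were named from the platform annotation: of 49395, 44988 had 1 symbol (these were averaged per gene), 1832 several and 2473 none, and 102 controls were left out. All 18132 genes were fitted with limma 3.58.1 (lmFit and eBayes) in R 4.3.3, and p-values were adjusted by the Benjamini-Hochberg method over all of them at a threshold of 0.05. On simulated data of 18132 genes, 45% of log2 changes of 0.25 and 81% of 0.5 were recovered. Far fewer genes changed there, with 131 calls against 7440 in the real fit, so the cut-off was stricter. These shares therefore do not give the sensitivity of the real fit. The number of arrays limits the precision.

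The members and lists were chosen with earlier results of these data known. Values by array are given for the 10 largest changes past the threshold and for 1 enzyme per role that did not pass; of related lists, up to 4 of the largest are named, and any other gene was chosen after its values were seen. Alternatives covered probe set summary, array scaling, the fit, the replicate block and each array left out. Replicate numbers were not taken to pair samples: same-numbered arrays' deviations correlated at 0.018, -0.046 and 0.067.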

Additional observations from a re-analysis of the deposited data

How the results depend on the processing

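Scaling to the poly-A spike-ins moved the most: over all genes 441 were higher and 16268 lower, and over the enzymes 1 was higher and 34 lower, with a median of -0.40. It turned the direction of PMM1 (-0.11), MPI (-0.29), DOLK (-0.23), DPM3 (-0.040), DPAGT1 (-0.32), ALG13 (-0.11), ALG1 (-0.19), ALG3 (-0.16), ALG9 (-0.21), ALG12 (-0.24), ALG6 (-0.37), STT3A (-0.33), STT3B (-0.33), RPN1 (-0.31), TUSC3 (-0.43), MAGT1 (-0.32), GANAB (-0.28), MAN1B1 (-0.40), MGAT2 (-0.24), MGAT5 (-0.42), SLC35A2 (-0.12) and MAN2A2 (-0.20). Lower related genes then numbered 4 for dolichol synthesis, 3 for other oligosaccharyltransferase subunits, 16 for folding, 15 for other Golgi genes and 12 for sugar nucleotides, with 0 higher in the last 3. With each probe set tested on its own, 9118 of 44988 were higher and 8207 lower, 39 and 17 for the enzymes, 2 and 4 for dolichol synthesis, 2 and 25 for folding and 6 and 17 for sugar nucleotides; other Golgi genes had 8 higher and other oligosaccharyltransferase subunits 2 lower. Without probe sets marked as reading several transcripts, 16701 genes were tested, SLC35A3 stood at 0.017, folding had 0 higher, and lower counts were 1 for dolichol synthesis, 1 for other Golgi genes and 0 for other oligosaccharyltransferase subunits. Replicate numbers were not taken to pair the samples, and 3 of 6 arrays correlated best with their own number. With the replicate block 3783 genes were higher and 3309 lower, 13 and 9 enzymes, and 1 gene of dolichol synthesis was lower. Leaving out each array gave 11 to 14 higher enzymes, 1 to 2 lower genes of dolichol synthesis and 0 to 1 lower other oligosaccharyltransferase subunits; OSTC lost its call without SHCBP1 shRNA replicate 1 and without SHCBP1 shRNA replicate 2. Quantile normalisation, centring of arrays, array weights, a robust fit and the median of probe sets kept every count within 1.5 times. Centred values allow no check of signal over background, and the cause of these shifts was not tested.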

Other observations

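Probe sets assigned to an enzyme together with another gene were left out of the gene values. The 2 that are assigned to ALG11 and UTP14C changed by -0.25 ± 0.05 and 0.040 ± 0.046 on the log2 scale (SE, n = 3 arrays per group), and the 2 assigned to GMPPB and AMIGO3 by -0.0060 ± 0.054 and 0.12 ± 0.10 (SE).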
